A study of Gallus gallus with 8 samples.

Results

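Chromosome Z, the larger sex chromosome of the chicken, held 4454 of the 89824 open regions measured by ATAC-seq in retinal pigment epithelium (RPE), or 4.96%. Every region whose deposited locus lay on chromosome Z was taken, with no criterion on its signal. The embryos were Gallus gallus from pathogen-free SPAFAS eggs, and 4 groups of 2 libraries each were compared. E4 RPE and E5 RPE were developing RPE of unoperated eyes at embryonic day 4 and 5. E4 6hPR+FGF2 and E5 6hPR+FGF2 were RPE collected 6 hours post-retinectomy (PR), that is after the neural retina had been cut out, from eyes that also received beads loaded with FGF2. No group had surgery alone, so surgery and FGF2 cannot be told apart here. No genetic change is named for any group, and each library pooled the RPE of 2 embryos whose sex the labels do not give. The files pair no gene with a locus, so the tissue was not checked against marker genes, and positions are given as deposited on the GRCg6a build.

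ATAC-seq reads mark DNA that a transposase can reach, which includes promoters and enhancers in use. In birds males carry ZZ and females ZW, and dosage compensation is partial: many Z genes stay more active in males, and no chromosome-wide silencing of one Z is known. A known exception is the male hypermethylated region, which is methylated and silent on both Z chromosomes of males and transcribed in females. The embryonic RPE is a pigmented sheet that can form neural retina under FGF2 for a short time in development, and the comparisons ask how accessible DNA differs across the days in which this ability is lost and after the treatment that calls on it.

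Each library held between 25233633 and 72884966 reads in open regions, and 1134088 to 3164704 of them fell on Z. The Z regions spanned 82.2 Mb at 54.2 regions per Mb, against 79.6 per Mb on chromosome 4 and 91.8 per Mb on chromosome 5, whose lengths are of the same order. The median gap between neighbouring Z regions was 8720 bp, against 5800 bp on chromosome 4 and 5000 bp on chromosome 5, and the widest gap was 1.48 Mb. The median width of a Z region was 500 bp, against 540 bp on autosomes. Their median signal over the 8 libraries was 137 normalized counts against 168 on autosomes, 3859 had a mean of at least 50, and 35 were at 0 in at least 1 library. In such bulk libraries, fewer cells with an open site and a less open site in each cell cannot be told apart.

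The level of the whole chromosome differed between libraries of the same group. This level is the median, over the 4454 Z regions, of the log2(normalized count + 1) of a region minus its own mean over the 8 libraries. For replicates 1 and 2 in turn it was 0.20 and -0.14 (E4 RPE), -0.51 and 0.36 (E5 RPE), 0.26 and -0.07 (E4 6hPR+FGF2) and 0.19 and -0.29 (E5 6hPR+FGF2). The corresponding autosomal levels stayed between -0.01 and 0.02. The deposited counts were scaled per library over all regions, of which 85167 of 89824 are autosomal, so autosomal levels near 0 are largely built in. The Z shifts are thus relative to the autosomes. No level is given for any other single chromosome, so whether such shifts are particular to Z was not tested. On a linear scale the Z levels ran from 0.704 to 1.28, where 1 stands for the mean log2 value of each region over the 8 libraries. Both extremes were E5 RPE.

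The share of normalized counts on chromosome W, which only females carry, differed far more. It was taken over the W regions that did not almost vanish after treatment, which left out 45 of 203. For replicates 1 and 2 in turn these W regions took 0.175% and 0.30% (E4 RPE), 0.401% and 0.0406% (E5 RPE), 0.00070% and 0.109% (E4 6hPR+FGF2) and 0.00042% and 0.187% (E5 6hPR+FGF2). Over all 203 W regions the shares ran from 0.00053% to 0.468%. In all 4 groups the library with the smaller W share had the higher Z level, with either set of W regions. Across the 8 libraries Spearman's rho between Z level and W share was -0.76 (exact permutation of 40320 pairings, two-sided p = 0.0368, adjusted p = 0.0490 over 4 relations). These 4 were r and rho, each on log2 and on linear scales. Ranks are the same on both scales, so rho entered the adjustment 2 times, and it passes the threshold only with that repeat. Over all W regions rho was -0.67 (exact permutation p = 0.0831), which misses the threshold, and r was -0.60 (exact permutation p = 0.125). With the 45 regions left out, Pearson's r with the log2 W share was -0.62 (exact permutation p = 0.104, adjusted p = 0.104). Without the 2 libraries farthest from the median W share, which were replicate 1 of both treated groups and had almost no W reads (495 and 133 over all W regions), r was -0.81 and rho -0.89 over 6 libraries (exact permutation p = 0.0472 and 0.0333). On linear scales, a choice made after the data were seen, r was -0.83 (exact permutation p = 0.0118, adjusted p = 0.0471). Each treatment held only 4 libraries, too few for a correlation of its own.

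**Figure D1:**
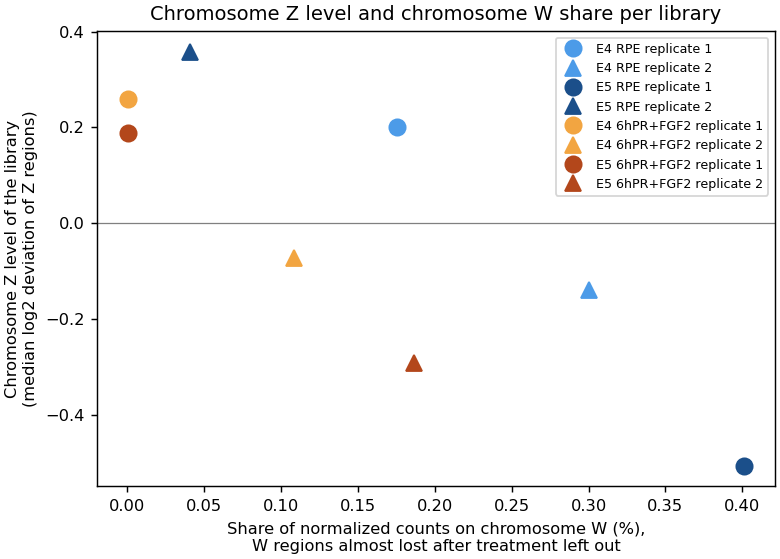
Chromosome Z level of each library (y axis, median log2 deviation of Z regions) against its share of normalized counts on chromosome W (x axis, percent, W regions almost lost after treatment left out); each point is 1 library, coloured by group, with circles for replicate 1 and triangles for replicate 2. The level falls from 0.36 in E5 RPE replicate 2, at 0.0406% on W, to -0.51 in E5 RPE replicate 1, at 0.401% on W.

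The same offset ran along nearly all of Z. In E5 RPE, replicate 2 stood above replicate 1 by a median of 0.88 log2 units or 1.85-fold, and only 83 of the 4454 regions (1.86%) were lower in replicate 2. The difference between replicates was 1.38-fold in E5 6hPR+FGF2 (514 regions against it), 1.27-fold in E4 RPE (1002 regions) and 1.21-fold in E4 6hPR+FGF2 (976 regions). Among the 17 windows of 5 Mb, counting regions with a mean of at least 50, the E5 RPE difference ran from 1.72-fold to 1.93-fold. In windows of 1 Mb, a division chosen after the data were seen, the window from 27 to 28 Mb stood lowest of 79 in E5 RPE, at 1.5-fold over 37 regions, and lowest in E5 6hPR+FGF2, at 1.10-fold. It ranked 7th lowest in E4 RPE, at a difference of 0.20 log2 units, and 5th lowest in E4 6hPR+FGF2, at 0.12. One region inside it held like signal in all libraries, while others in the window differed between libraries by far more. Z:27468690-27469620 had 475 and 507 normalized counts (E4 RPE), 512 and 528 (E5 RPE), 495 and 508 (E4 6hPR+FGF2) and 513 and 466 (E5 6hPR+FGF2).

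The correlation with the W share was negative for most of the stronger Z regions and positive for others. Among the 2730 Z regions whose mean reached 100 normalized counts, the median correlation of log2 signal with log2 W share over the 8 libraries was -0.48. It was above 0 in 460 regions, and 3 exceeded 0.7. These correlations are descriptions over the same 8 libraries, which differ in depth, stage and treatment. They were not taken on other chromosomes, so whether these counts are particular to Z cannot be told. Counts are given for replicates 1 and 2 of a group in turn. The first, Z:27306620-27307200 (580 bp, r = 0.88), had 303 and 934 normalized counts (E4 RPE), 1605 and 16.7 (E5 RPE), 7.59 and 237 (E4 6hPR+FGF2) and 16.5 and 333 (E5 6hPR+FGF2). The 3 libraries with the least W signal held 7.59 to 16.7 counts and the other 5 held 237 to 1605, and both sets mix stages and treatments.

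The second was the widest, Z:73366180-73376260 (10080 bp, r = 0.85). It had 5726 and 12680 normalized counts (E4 RPE), 24196 and 325 (E5 RPE), 241 and 2763 (E4 6hPR+FGF2) and 402 and 6093 (E5 6hPR+FGF2). The replicates of E5 RPE thus differed by more than any of the group means did. The third, Z:27170490-27170780 (290 bp, r = 0.76), had 202 and 272 counts (E4 RPE), 443 and 3.33 (E5 RPE), 1.38 and 270 (E4 6hPR+FGF2) and 22.0 and 799 (E5 6hPR+FGF2). None of the 3 was called in any contrast in the centred limma fit, where their standard errors were 1.98 to 2.53 log2 units against a median of 0.288 over Z.

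The first and the third lay in 1 stretch. Over all Z regions, whatever their signal, 8 had r above 0.7, and 5 of these fell within 248.79 kb at Z:27126090-27374880, inside the window that stood lowest in both E5 groups. The window median comes from the same libraries and includes some of the 5, so its low place is not separate support. The count of 8 was not set against other chromosomes. A weaker one of the 5, Z:27374250-27374880 (r = 0.96), held 28.3 and 83.2 counts (E4 RPE), 101 and 10 (E5 RPE), 0 and 15.3 (E4 6hPR+FGF2) and 0 and 13.7 (E5 6hPR+FGF2). Not every neighbour did so: within 250 kb of the first region 17 regions were measured, their median r was -0.20, and the strongest, Z:27480010-27482130, had r = -0.77 with 1620 counts in E5 RPE replicate 1 and 2335 in replicate 2. Around the 10080 bp region, 28 regions lay within 250 kb, it alone exceeded 0.7, and the median r was -0.53. Whether either stretch is the male hypermethylated region was not looked up, since no annotation of this build was used. Reads of repeated or W-like sequence that align to Z were not separated here, and their part in these regions was not tested.

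**Figure D2:**
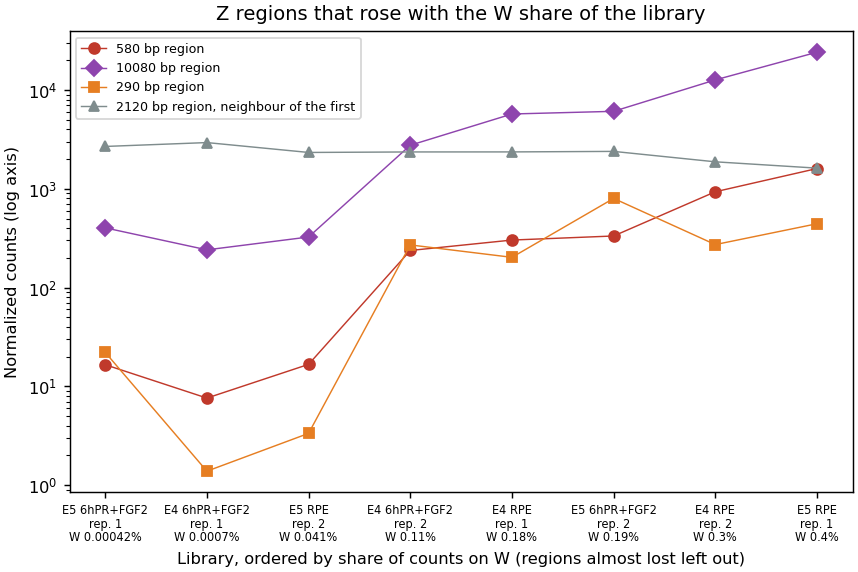
Normalized counts (y axis, log axis) of the 3 Z regions of mean at least 100 whose signal ran most closely with the W share, and of the strongest neighbour of the first, in the 8 libraries ordered by W share from lowest to highest (x axis). The 580 bp region goes from 16.5 in the library with the least W signal to 1605 in the one with the most, while its 2120 bp neighbour goes from 2686 to 1620.

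To remove the offset, the Z level of each library was subtracted from its Z values, which left autosomal and W values as deposited. The median SD between replicates fell from 0.378 to 0.182 log2 units on Z, against 0.172 on autosomes, and in E5 RPE it fell from 0.627 to 0.134. Treatment then accounted for 55.8% of the variance between libraries over Z regions, against 46.0% without centring, and stage for 18.3% against 16.1%. Each centre was taken from these same values, so the smaller spread between replicates, and with it the larger shares, is largely built in. Centring cannot tell the sex of the pools from a change of the whole chromosome with stage or treatment, and removes both, so all centred changes are relative to the Z median. The centres were estimated from the same libraries and cost the test no degrees of freedom. Replicates are separate libraries of pooled embryos. The limma p-values set a group difference against the spread between replicates, estimated over all 4 groups together.

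**Figure D3:**
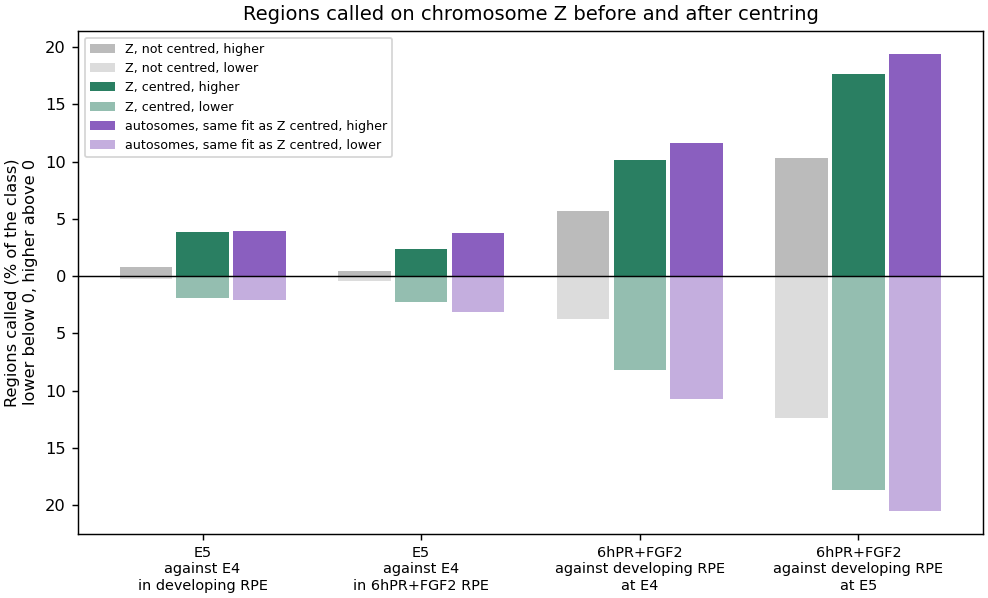
Share of regions called by limma (y axis, percent of Z or autosomal regions, higher above 0 and lower below it) in each of 4 comparisons (x axis), for Z regions without centring, Z regions after centring, and autosomal regions in the fit with Z centred. In each comparison the centred Z bars lie between the uncentred Z bars and the autosomal bars: for the treatment at E5 a total of 22.7% of Z regions was called without centring, 36.3% with it, and 39.9% of autosomal regions.

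In developing RPE, more Z regions were called higher than lower at E5, a split close to that of all open regions that moved with the centre and with the libraries used. After centring, 257 Z regions were called at a limma adjusted p of at most 0.05, 171 higher and 86 lower at E5. This was 5.77% of Z regions (3.84% higher and 1.93% lower), against 6.01% of all open regions (3.92% higher and 2.09% lower). The median absolute change of the called regions was 1.26 log2 units, 175 changed at least 2-fold, and the median change over all Z regions was 0.03. Without centring 46 were called, 34 higher and 12 lower (1.03%, against 4.16% of all regions, 2.8% higher and 1.35% lower), and 45 of these were among the 257. Centred by summed Z signal in place of the median, 119 were higher and 107 lower. The count rested on single libraries: it was 0 without E5 RPE replicate 1 (647 at an unadjusted p under 0.05), 3 without E5 RPE replicate 2 and 28 without E4 RPE replicate 1, of which 7 were higher.

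The firmest opening was Z:12955250-12956660. Its normalized counts were 284 and 252 (E4 RPE), 951 and 1421 (E5 RPE), 165 and 160 (E4 6hPR+FGF2) and 378 and 337 (E5 6hPR+FGF2). Developing E5 libraries stood above all others, a gap that the choice of rises without overlap largely fixed against E4 RPE. The centred change in developing RPE was 2.22 log2 units (SE 0.20, n = 2 and 2, limma adjusted p = 0.00176). The treated groups differed the same way by 1.28 (SE 0.20, limma adjusted p = 0.00953), and after treatment at E5 the region fell by 1.72 (SE 0.20, limma adjusted p = 0.000122). The developing call was lost without E5 RPE replicate 1, a fit that called no Z region in this comparison. Between 10 and 15 Mb, 23 of 290 regions (7.93%) were called in developing RPE, against 6.01% of all open regions. Of these 23, 22 were higher at E5, this region included. In treated RPE 13 were called there, 8 higher and 5 lower, or 4.48% of the bin against 6.74% of all open regions. The median levels of E4 and E5 libraries overlapped in that stretch. The bin was picked from 17, and in some others more regions were called lower than higher in developing RPE. Its lean was not tested.

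Of the other large rises, Z:34148970-34149370 was among the 3 largest in both stage comparisons. It held 14.1 and 33.4 counts (E4 RPE), 60.1 and 167 (E5 RPE), 18.6 and 9.92 (E4 6hPR+FGF2) and 171 and 125 (E5 6hPR+FGF2), so that all E5 libraries exceeded all E4 libraries. The choice of large rises without overlap in both comparisons largely fixed this gap. Its centred change was 2.26 in developing RPE (SE 0.49, limma adjusted p = 0.027, and 0.0628 without centring) and 3.47 in treated RPE (SE 0.49, limma adjusted p = 0.00775). The region Z:36213110-36213460 rose by 2.18 (SE 0.40, limma adjusted p = 0.0149, and 0.0541 without centring), from 31.1 and 21.2 counts (E4 RPE) to 83.5 and 149 (E5 RPE). Both of these developing rises lost their call without E4 RPE replicate 1 and without each E5 RPE library. The fits without an E5 RPE library called few Z regions or none, so those losses do not set the 2 rises apart.

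The falls with stage included 2 regions near each other. Z:48093300-48093660 had 291 and 182 counts (E4 RPE), 22.6 and 65.0 (E5 RPE), 430 and 311 (E4 6hPR+FGF2) and 91.9 and 108 (E5 6hPR+FGF2). All E4 libraries exceeded all E5 libraries, a gap that the choice of falls without overlap largely fixed for the developing ones. The region fell by 2.44 log2 units in developing RPE (SE 0.31, limma adjusted p = 0.00491). Z:48052900-48053320 went from 170 and 118 (E4 RPE) to 16.3 and 30.8 (E5 RPE), and fell by 2.50 (SE 0.38, limma adjusted p = 0.0079). Z:42441790-42442070 went from 123 and 92.1 to 6.37 and 46.7 and fell by 2.41 (SE 0.50, limma adjusted p = 0.0229, and 0.0701 without centring). The E5 RPE replicates of this last region were far apart, in the direction of their Z levels. All 3 of these calls were lost without E5 RPE replicate 1, as was every other Z call of this comparison. That of Z:48052900-48053320 was also lost without E4 RPE replicate 1 and without E5 RPE replicate 2, and that of Z:42441790-42442070 without each E4 RPE library.

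In 6hPR+FGF2 RPE the stage comparison was balanced. The centred fit called 209 Z regions, with 107 above and 102 below their E4 level at E5. This was 4.69% of Z regions against 6.74% of all regions (3.67% higher and 3.07% lower). Without centring 40 were called, 19 higher and 21 lower, or 0.898% against 4.6% of all regions (2.54% higher and 2.06% lower). The split depended on the centre: by summed Z signal 67 were higher and 149 lower. A fit of only the 4 treated libraries called 0 by limma (768 at an unadjusted p under 0.05), while edgeR and DESeq2 on all 8 libraries called 203 and 360. Leaving out E5 6hPR+FGF2 replicate 2 gave 3 calls, and E4 6hPR+FGF2 replicate 1 gave 10. The count was 78 and 71 without E5 RPE replicates 1 and 2, and 376 without E5 6hPR+FGF2 replicate 1.

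After Z:34148970-34149370, the largest rise was at the first kilobases of the assembled chromosome. Z:13830-14290 had 137 and 93.8 counts (E4 RPE), 70.7 and 127 (E5 RPE), 22.8 and 22.1 (E4 6hPR+FGF2) and 127 and 76.0 (E5 6hPR+FGF2). Only the treated E4 libraries were low, and the stage difference was 2.23 in treated RPE (SE 0.30, limma adjusted p = 0.00713) and -0.15 in developing RPE (SE 0.30, limma adjusted p = 0.824). The interaction of stage and treatment was not called for it. Z:24626820-24627040 was low in developing libraries, at 6.52 to 19.8 counts, and had 47.6 and 74.0 (E4 6hPR+FGF2) and 239 and 223 (E5 6hPR+FGF2), a difference of 2.09 (SE 0.48, limma adjusted p = 0.031, and 0.0596 without centring).

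The falls were spread wide between replicates. Z:26910070-26910350 went from 186 and 187 counts (E4 6hPR+FGF2) to 42.3 and 4.56 (E5 6hPR+FGF2) (-3.45, SE 0.66, limma adjusted p = 0.0174). Z:58706500-58707330 went from 625 and 160 to 97.4 and 18.2 (-2.72, SE 0.61, limma adjusted p = 0.0284), and its developing libraries went from 717 and 297 to 50.2 and 127. Z:59499020-59499440 went from 140 and 67.9 to 33.1 and 6.08 (-2.52, SE 0.60, limma adjusted p = 0.0343). These last 2 lost their calls without centring, at limma adjusted p = 0.0705 and 0.0661. All 6 of the largest rises and falls in treated RPE lost their calls when only the 4 treated libraries were fitted, and also when E5 6hPR+FGF2 replicate 2 was left out. The first of these fits called no Z region at all and the second very few, so these losses do not set the 6 regions apart. The 3 falls and Z:24626820-24627040 also lost theirs without E4 6hPR+FGF2 replicate 1, and Z:24626820-24627040, Z:58706500-58707330 and Z:59499020-59499440 without each E5 RPE library.

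The developing and the treated stage comparisons share no library. Of their called regions, 46 were called in both, 33 higher and 13 lower at E5 and 0 in opposite directions, or 17.9% of the first list and 22.0% of the second. Over all open regions 1682 were called in both, or 31.2% of the first list and 27.8% of the second. Among all 4454 regions the 2 changes had the same sign in 65.7% (65.8% of all open regions), and their correlation across regions, which are not independent, was 0.51 on Z and 0.52 over all open regions.

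More Z regions were called for the treatment than for the stage. At E4, 815 Z regions were called after centring, 451 higher and 364 lower in 6hPR+FGF2 RPE, or 18.3% against 22.2% of all regions (11.5% higher and 10.7% lower). Without centring 420 were called (253 higher and 167 lower), or 9.43% against 20% of all regions (10.4% higher and 9.53% lower), 414 of which were among the 815. At E5, 1617 were called, 785 higher and 832 lower, or 36.3% against 39.7% of all regions (19.3% higher and 20.5% lower). Without centring 1013 were called there, 460 higher and 553 lower, or 22.7% against 37.5% (18.2% higher and 19.3% lower), and 1003 of them were shared. Leaving out E4 RPE replicate 2 gave 441 at E4, and leaving out the treated replicates 1 and 2 gave 534 and 344. Of the 344, 137 were higher, so the lean towards rises at E4 turned there. At E5 it was 847 and 919 without E5 RPE replicates 1 and 2.

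Most Z regions called for the treatment at E4 were called at E5 too, at a share like that of all open regions. The comparisons at E4 and E5 have no library in common, and 688 regions were called in both, 380 higher and 308 lower and 0 in opposite directions. This was 84.4% of the E4 calls and 42.5% of the E5 calls, against 82.4% and 46.0% over all open regions. The correlation of the changes across regions was 0.82 on Z and 0.84 over all open regions, and regions are not independent. No Z region was called for the interaction of stage and treatment in the limma fit, with or without centring (0 of 4454, against 0.00223% of all regions), and edgeR called 0 and DESeq2 called 13, 3 higher and 10 lower. At an unadjusted p under 0.05 there were 432 Z regions (9.7%), against 10.2% of autosomal regions.

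**Figure D4:**
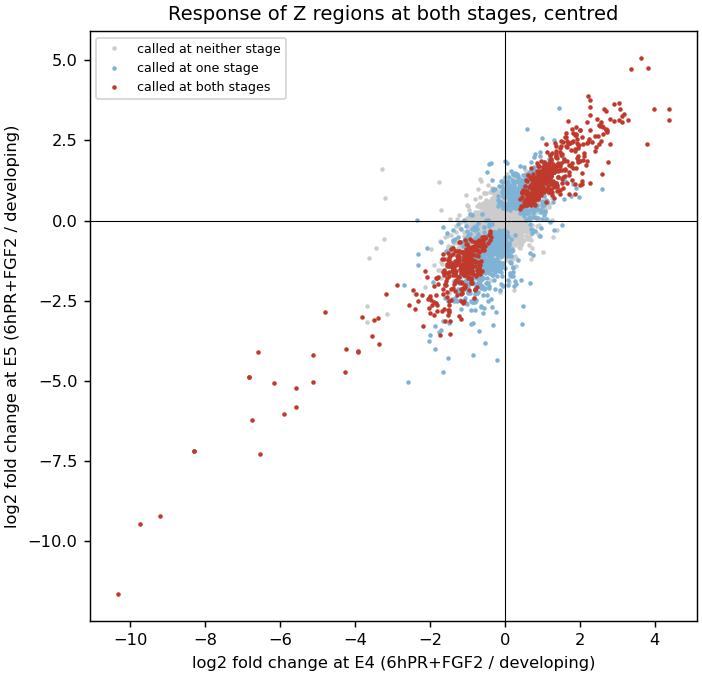
Centred log2 fold change of each of the 4454 Z regions after 6hPR+FGF2 at E4 (x axis) and at E5 (y axis); red points were called at both stages, blue at one and grey at neither. The 688 regions called at both stages lie in the lower left and upper right quadrants, and the farthest fall is at -10.3 and -11.7.

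The largest openings after treatment, ranked by log2 change, started from low counts. Only the higher group had to reach a set mean, so such a start is largely built into the ranking. Z:57276480-57276830 had 11.3 and 16.3 counts (E4 RPE), 9.19 and 14.2 (E5 RPE), 166 and 271 (E4 6hPR+FGF2) and 452 and 261 (E5 6hPR+FGF2). It rose by 3.80 log2 units at E4 (SE 0.42, limma adjusted p = 0.000259) and by 4.77 at E5 (SE 0.42, limma adjusted p = 3.83e-05), the only region among the 3 largest rises at both stages. Z:55410800-55411150 had 12.7 and 15.5 (E4 RPE), 4.24 and 8.33 (E5 RPE), 167 and 228 (E4 6hPR+FGF2) and 255 and 222 (E5 6hPR+FGF2), a rise of 5.07 at E5 (SE 0.40, limma adjusted p = 2.35e-05). In both regions every treated library stood far above every developing one, a gap that the choice of large rises without overlap largely fixed.

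At E4 the largest rise was Z:34536490-34537050, from 5.66 and 10.6 counts (E4 RPE) to 156 and 230 (E4 6hPR+FGF2). Its centred change was 4.38 (SE 0.47, limma adjusted p = 0.000216), and at E5 it went from 18.4 and 24.2 to 277 and 140. Z:52449610-52449900 went from 4.24 and 14.7 to 108 and 199 at E4 (3.97, SE 0.62, limma adjusted p = 0.00151). Z:18323590-18323810 went from 6.37 and 5.00 to 254 and 125 at E5 (4.73, SE 0.77, limma adjusted p = 0.000857). All of these rises were called under each of the 23 alternatives.

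The largest falls were regions that almost vanished, an end that ranking by log2 change favours. On Z, 10 of 4454 regions had a developing mean of at least 100 and kept under 2% of it in treated libraries. In the genome it was 188 of 89824. Of these, 133 were among the 85167 autosomal regions and 45 among the 203 regions on W. The 10 on Z include 1 pair with identical values, and the shares were not compared by a test. The strongest, Z:56085290-56085660, had 13968 and 9503 counts (E4 RPE), 15993 and 9884 (E5 RPE), 7.59 and 9.16 (E4 6hPR+FGF2) and 14.7 and 0 (E5 6hPR+FGF2). Its counts in developing RPE were among the highest of Z. It is 370 bp wide, against 6560 bp for the Z region of highest mean. It held 23 reads in E4 6hPR+FGF2 and 8 in E5 6hPR+FGF2. This is 1408-fold lower at E4 (95% exact Poisson counting interval 938 to 2221) and 1945-fold lower at E5 (987 to 4505). Up to 5 alignments were reported per read, and the part of repeated sequence in its counts was not tested. The limma adjusted p was 4.68e-05 at E4 and 1.76e-05 at E5.

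A pair of others held 1 read at E4 and none at E5 after treatment. Z:25688320-25689270 had 1148 and 1032 counts (E4 RPE), 1025 and 483 (E5 RPE), 0 and 0.763 (E4 6hPR+FGF2) and 0 in both E5 6hPR+FGF2 libraries. With 3 reads over the group as the limit for a count of 0, it was at least 302-fold lower at E5, and 1 read at E4 put it 3009-fold lower (540 to 118832). Z:44045370-44045940, with 517 to 956 counts in developing libraries, held 1 read in E4 6hPR+FGF2 and 0 in E5 6hPR+FGF2, at least 239-fold lower at E5. A further one, Z:49317490-49318820, fell without vanishing, from 6350 and 5164 (E4 RPE) and 7916 and 4587 (E5 RPE) to 61.4 and 48.1 (E4 6hPR+FGF2) and 101 and 65.3 (E5 6hPR+FGF2) (-6.76 at E4, SE 0.38, limma adjusted p = 4.76e-06). Z:76962580-76963460 went from 656 to 853 counts in developing libraries to 0 to 22.0 in treated ones. Intervals and limits cover counting error only.

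Some of these regions shared their values or their neighbourhood. Z:71269970-71270390 and Z:71286310-71286730 had identical values in all 8 libraries, 511 and 174 (E4 RPE), 104 and 196 (E5 RPE) and 0 in the 4 treated libraries. Up to 5 alignments were reported per read, whether the same reads were counted at both places was not tested, and the pair is best read as 1 measurement. A second identical pair, Z:67427530-67427730 and Z:67452940-67453140, had 127 and 92.1 (E4 RPE), 22.6 and 35.0 (E5 RPE) and 0 in treated libraries. The regions Z:62763390-62763780 and Z:62763890-62764360, next to each other, also almost vanished, from 284 and 271 (E4 RPE) to 4.83 and 5.34 (E4 6hPR+FGF2) in the first of them. The second of these and Z:5431440-5432730, which also almost vanished, were the 2 further regions with the highest correlation with W share, at 0.69 and 0.64. The 4 treated libraries had W shares of 0.00042% to 0.187%, against 0.0406% to 0.401% in developing ones. These 2 correlations therefore cannot be told apart from the fall with treatment. In developing RPE Z:5431440-5432730 had 188 and 429 counts (E4 RPE) and 409 and 26.7 (E5 RPE), lowest in the library with the least W signal. Leaving out all almost lost regions left 802 calls at E4 and 1606 at E5.

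Falls outside that set were still large, and were looked up after the values were seen. Z:40520120-40520380 had 1537 and 978 counts (E4 RPE), 1226 and 764 (E5 RPE), 22.1 and 13.0 (E4 6hPR+FGF2) and 40.4 and 19.8 (E5 6hPR+FGF2), and fell by 6.16 at E4 (SE 0.42, limma adjusted p = 1.44e-05). Z:48994010-48994820 had 1762 and 1264 (E4 RPE), 1176 and 878 (E5 RPE), 46.2 and 41.2 (E4 6hPR+FGF2) and 51.4 and 18.2 (E5 6hPR+FGF2), and fell by 5.02 at E5 (SE 0.39, limma adjusted p = 2.35e-05). In both, every developing library stood far above every treated one, a gap that the choice of large falls without overlap largely fixed.

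At the other end were the regions of Z with the highest mean counts. Z:70933760-70940320, the strongest, had 15003 and 11916 counts (E4 RPE), 9433 and 18418 (E5 RPE), 15955 and 11593 (E4 6hPR+FGF2) and 13004 and 9001 (E5 6hPR+FGF2). Their order was close to that of the Z levels of the libraries, and after centring they spanned 0.38 log2 units. It was still called for the treatment at E5, where it fell by 0.31 (SE 0.10, limma adjusted p = 0.0341, and 0.469 without centring). The next 4, Z:13610380-13612530, Z:39264360-39267680, Z:44367190-44370900 and Z:20851040-20853150, spanned 0.57, 0.35, 0.44 and 0.40.

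Some called regions with the same direction lay side by side. The share of called regions in runs of at least 2 neighbours was 12.1% and 11.5% in the stage comparisons of developing and treated RPE, 28.2% for the treatment at E4 and 41.4% at E5. The order of these shares is that of the number of regions called, and their differences were not tested. Calls also fall side by side by chance, more so where more are called. Runs were not counted on other chromosomes, so these shares do not show that calls cluster on Z. At E4 the longest run was 6 lower regions over 11.65 kb at Z:42784960-42796610, with a median of -1.40, followed by 5 higher over 36.57 kb at Z:54108290-54144860, with a median of 1.48. At E5, 7 lower regions ran over 26.64 kb at Z:12267890-12294530, with a median of -1.11. Runs of 6 followed at E5, lower at Z:16099970-16131300 and Z:38552860-38589170 and higher at Z:54089060-54144860. The last contains the longest higher run of E4, so that stretch opened at both stages. The longest stage runs were 3 regions, higher in developing RPE at Z:41430570-41448500 and, in treated RPE, higher at Z:46558170-46595820 and lower at Z:80245700-80284090. Without centring, all 5 regions of the higher run at E4 were called, and 4 of the 6 in the lower one. At E5 it was 6 of 7 in the longest run, 4 of 6 in that at Z:16099970-16131300, 5 of 6 in that at Z:38552860-38589170 and 4 of 6 in the higher one. In the stage runs it was 0 of 3, 1 of 3 and 0 of 3 in the order given.

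Along the chromosome, treated and developing libraries stood apart in some bins, as they did over all chromosomes. In each of 17 bins of 5 Mb the median centred deviation was taken per library. In 9 of the 17 the 4 treated and the 4 developing libraries did not overlap, against 148 of the 228 such bins of all chromosomes (64.9%). These shares were not compared by a test, and bins of other chromosomes were not centred on their own chromosome. The Z values are relative to the Z median, so some bins must lie above it and others below. Each of these 9 had the smallest p that the 70 splits allow (exact permutation, two-sided, p = 0.0286), and adjusted over the bins it was 0.0540, which misses the threshold. Treated libraries were higher by 0.19 between 0 and 5 Mb and by 0.25 between 5 and 10 Mb. They were lower by 0.17, 0.16 and 0.13 in the 3 bins from 35 to 50 Mb and by 0.23 between 60 and 65 Mb. The remaining differences were smaller: higher by 0.08 between 50 and 55 Mb, and lower by 0.07 between 65 and 70 Mb and by 0.06 between 70 and 75 Mb.

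The counts of called regions rest on the same centred values as the bin medians above, so their lean is not separate evidence. Between 5 and 10 Mb, 65 regions were higher and 16 lower after treatment at E4, and 93 and 37 at E5. These made up 21.7% and 34.9% of the bin, against 22.2% and 39.7% of all open regions. Between 40 and 45 Mb, 21 were higher and 37 lower at E4, and 46 and 85 at E5. The shares of that bin were 18.1% and 40.9%. Both bins were among those apart by treatment. Without centring no bin was apart (0 of 17, against 61% of all bins). The differences were then 0.29 between 5 and 10 Mb and -0.18 between 60 and 65 Mb. By stage, 2 bins were apart (against 4.82% of all bins), at -0.08 between 55 and 60 Mb and -0.23 between 75 and 80 Mb (exact permutation adjusted p = 0.243), and 0 without centring (against 3.95%).

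**Figure D5:**
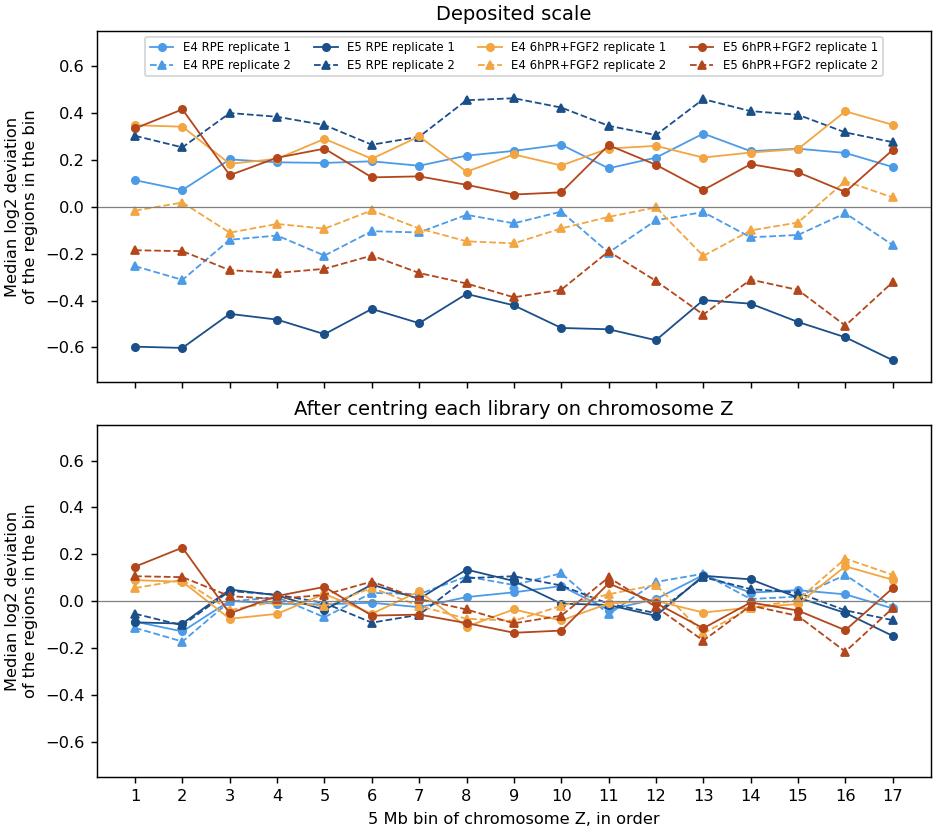
Median log2 deviation of the Z regions in each 5 Mb bin (y axis) against the order of the bin along Z (x axis), per library, on the deposited scale (top) and after centring (bottom); colours mark groups, circles replicate 1 and triangles replicate 2. On the deposited scale E5 RPE replicate 1 runs from -0.65 to -0.37 and is the lowest in all bins but that from 60 to 65 Mb, and E5 RPE replicate 2 runs from 0.25 to 0.46; after centring all values lie between -0.22 and 0.23, and the treated libraries are the highest in the first 2 bins.

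The balance of rises and falls varied with the signal and width of the Z regions, and other chromosomes were not split this way. The Z regions were split into 4 equal classes by mean signal. In the lowest, 305 were called for the treatment at E5, 77 higher and 228 lower, and the median change of the class was -0.42. In the 3 higher classes rises outnumbered falls, at 209 to 185, 262 to 203 and 237 to 216. The share called for the treatment at E4 was 7.45% in the lowest class and 19.7%, 25.4% and 20.6% in the others. By width, the 2246 regions of at most 500 bp had 229 rises and 112 falls at E4 and 406 and 339 at E5. The 225 regions over 2000 bp had 15 rises and 17 falls at E4 and 22 and 52 at E5. The differences between these classes were not tested, and whether they are particular to Z cannot be told from these counts.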

How the data were processed

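ATAC-seq libraries were trimmed, aligned to GRCg6a with Bowtie2 (up to 5 alignments per read), deduplicated with Picard and called per library with HMMRATAC by the authors, who merged regions within 10 bp and counted reads with featureCounts. The deposited values are a signal: read counts per region divided by DESeq2 size factors, not pooled. Whole reads were recovered for 100% of values (tolerance 1e-06), with size factors of 0.544 to 1.45. Whether starts are counted from 0 or from 1 was not stated. The deposited values show depth within open regions only.

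Values were tested as log2(normalized count + 1), which understates changes of weak regions, with limma 3.58.1 in R 4.3.3: group means of all 8 libraries, trended empirical Bayes, 2-sided, Benjamini-Hochberg over all 89824 regions, threshold 0.05. Z values were centred per library, and the same fit was made without centring. The test was tried on simulated data. Alternatives included edgeR 4.0.16 and DESeq2 1.42.0 on recovered reads with the Z centre as an offset. Named were, per comparison, the 3 largest rises and 3 largest falls past that threshold whose replicates did not overlap and whose higher group had a mean of 100 or more, plus the 5 regions of highest mean, of highest correlation with W share and of widest centred range, and the longest runs. Members, lists and tests were chosen with earlier results of these data known. Planned gene lookups were not run, as no annotation of this build was used.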

Additional observations from a re-analysis of the deposited data

How the results depend on the processing

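Library choice and centring decided how many Z regions were called, more for stage than for treatment. The counts with each library left out in turn ran from 0 to 343 for the developing stage comparison (257 with all libraries), 3 to 376 for the treated one (209), 344 to 959 for the treatment at E4 (815) and 847 to 1669 at E5 (1617); with 1 library left in a group, that library is assumed to vary like the others. Without centring the counts were 46, 40, 420 and 1013, and by edgeR without centring, added after the data were seen, 55, 41, 441 and 988. DESeq2 with centring called 476 and 360 in the stage comparisons, and 13 for the interaction (1 without centring), where limma and edgeR called 0. Fits of only the 4 libraries compared called 404 for developing and 0 for treated stage. Bins apart by treatment were 9, but 0 without centring, 5 with bins of 10 Mb and 7 to 10 with a library left out; bins apart by stage were 2, but 0 without centring, 1 with bins of 10 Mb, 1 by the mean and 1 to 3 with a library left out. The correlation of Z level with log2 W share was -0.62, -0.81 without the 2 farthest libraries and -0.83 on linear scales. The rank correlation was -0.76, which passed after adjustment only with its test counted 2 times. Over all W regions it was -0.67 (exact permutation p = 0.0831), which misses the threshold. Why these counts move was not tested, beyond the fewer libraries of some fits. Shares over all open regions are given only for the main and the uncentred limma fit, so the other moves cannot be read as particular to Z. Among the 3 largest rises and falls of each comparison, 0 reversed under any alternative run and 0 of the treatment calls were lost; the other named regions, and the runs beyond their calls without centring, were not put through the alternatives.

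Replicate numbers were shared between groups. Correlations of the deviations of equal numbers ran from -0.146 to 0.320 over all regions. Over centred Z regions they ran from -0.076 to 0.386, the highest between E4 RPE and E4 6hPR+FGF2. They were of both signs, so the numbers were not taken to pair libraries. A fit that took the replicate number as a block called 526 Z regions for developing stage (321 higher), 459 for treated stage, 1013 and 1800 for the treatment at E4 and E5, and 0 for the interaction.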
